A study of Nannochloropsis oceanica with 36 samples.

Results

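The course of transcript levels from 3 h to 6 h after transfer to nitrogen-deprived medium was followed in Nannochloropsis oceanica IMET1, a unicellular marine alga of the eustigmatophytes. The comparison rests on 6 of the 36 libraries of the series, chosen by their titles: 3 labelled Nitrogen 3h and 3 labelled Nitrogen 6h, the titles used for the deprived condition according to the treatment protocol. All groups are whole cells of this strain, precultured in modified f/2 medium with nitrate at 25 °C in continuous light (about 50 µmol photons per m2 and s) with air enriched to 1.5% CO2. Cells in mid-logarithmic growth went, after washing in seawater, in equal numbers into N-deprived or N-replete medium, so N-replete cells carry the same washing and transfer. The 3 libraries of N-deprived medium at 4 h and the 9 of N-replete medium at 3, 4 and 6 h are set beside them.

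When nitrogen runs out, algae of this kind stop dividing, recycle nitrogen from protein and pigment, and turn fixed carbon towards storage lipid, chiefly triacylglycerol. The first hours cover the change of transcripts that precedes this. Cells moved to fresh medium also adjust to handling and to a new culture density whether or not nitrogen is present, which is why the same interval in N-replete medium is needed beside the N-deprived course. The files pair 1 of 9756 gene models with a gene symbol, DGAT1A, and give the others by scaffold and number, so genes are given by identifier and 1-based position on the authors' scaffolds, and pathways were not examined.

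Each gene model has an FPKM value per library, a fragment number relative to transcript length and to the size of the library. The 3 h libraries summed to 538574 to 565279 FPKM and the 6 h libraries to 536676 to 552351 FPKM, with medians of 26.7 to 28.0 and 27.4 to 28.1 FPKM. Between 49 and 60 gene models were at 0 in a library. Fragment numbers were not given, and the steps between low values did not settle the relative depth of the libraries, since 2 ways of reading them gave estimates whose ratio ranged from 0.481 to 1.958. Replicates of these groups correlated at a Pearson's r of 0.9916 to 0.9950 on the log2(FPKM + 1) scale, over genes, which are no replicates of each other. The protocol describes poly(A) selection from total RNA, while the molecule label of the samples reads nuclear RNA.

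Most genes changed between 3 and 6 h in N-deprived medium, and rises and falls were close in number. Of 9647 genes tested, 6730 (69.8%) passed a Benjamini-Hochberg adjusted p of 0.05 in limma's linear model of log2(FPKM + 1). Of these, 3377 (35.0% of genes tested) rose and 3353 (34.8%) fell. With quantile normalization the numbers were 3281 and 3647, and with each library centred on its median ratio 3700 and 3269, so the order of the 2 numbers was not settled. It also turned when either of 2 libraries was left out, to 3093 rises and 3322 falls without N-deprived replicate 3 of 3 h and to 3215 and 3229 without replicate 2 of 6 h, and without the 12 h libraries, to 3462 and 3471. The changes were small for most genes, with a median of 1.50-fold among those that passed. At least 2-fold changes were found for 915 genes that rose (9.48%) and 650 that fell (6.74%). At least 4-fold changes were found for 167 and 75, and at least 8-fold for 12 and 3. The 3 libraries of each time did not overlap for 75.8% of genes.

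Genes that fell at least 2-fold started from a high level, and genes that rose started from a low one. The median gene of the 650 stood at 52.5 FPKM at 3 h and 19.3 FPKM at 6 h, and the median gene of the 915 at 12.7 and 39.1 FPKM. These sets were chosen on the same libraries, so their levels describe them and test nothing. Together the 650 genes made up 18.9 to 19.5% of the summed FPKM of the 3 h libraries, 12.6 to 14.5% at 4 h and 6.51 to 7.30% at 6 h. The 915 went from 4.77 to 5.22% through 7.05 to 8.62% to 14.9 to 15.9%. N-replete libraries did not enter the fold changes that chose these sets, though they share in the filter and in the variance of the test. In them the same 650 genes went from 19.2 to 20.0% at 3 h to 9.98 to 12.1% at 6 h, and the same 915 from 5.20 to 5.69% to 12.0 to 14.9%. Both media thus moved the same way for both sets. How far apart they stand at 6 h is no result, since the N-deprived 6 h values chose the genes.

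**Figure D1:**
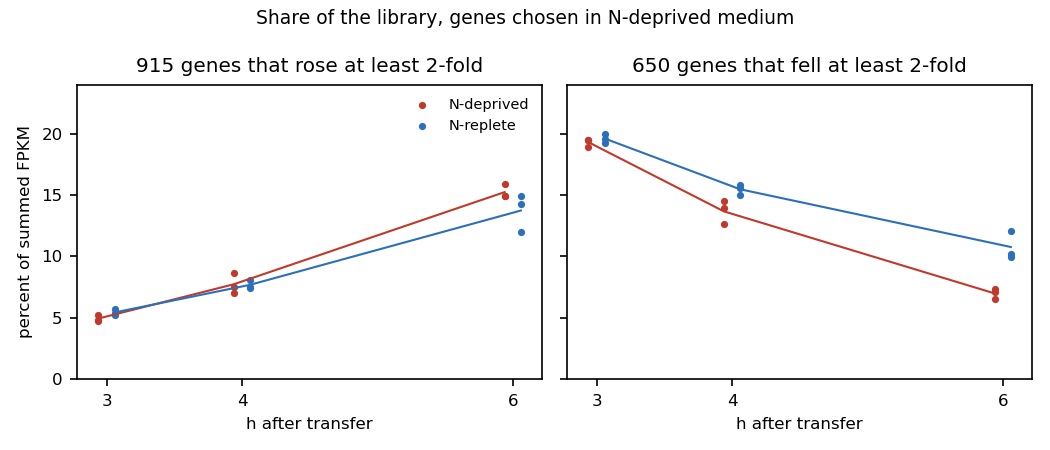
Share of the summed FPKM (percent, vertical axis) held by the 915 genes that rose and the 650 that fell at least 2-fold in N-deprived medium, against hours after transfer. Points are single libraries and lines join group means, with N-deprived in red and N-replete in blue. Both media move the same way, the 650 falling genes ending at 6.51 to 7.30% in the N-deprived libraries that chose them and at 9.98 to 12.1% in N-replete ones.

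Large changes were found at every level of expression, with falls more common among abundant transcripts. Genes were split into 4 equal groups by mean FPKM over the 6 libraries. In the most abundant group (55.1 to 4860 FPKM) 10.1% fell and 9.54% rose at least 2-fold. In the least abundant, up to 15.3 FPKM, 5.93% fell and 11.9% rose. The added 1 FPKM holds down folds in that last group. In 4 equal groups by locus length the shares ranged from 8.04 to 11.4% for rises and from 6.51 to 7.01% for falls. Among the 100 most abundant genes, with means of 500 FPKM or more, 53 fell and 37 rose, where 34.8 and 35.0% of all genes did. At least 2-fold, 32 fell and 15 rose, where 6.74 and 9.48% of all genes did. Those 100 took 18.8 to 19.1% of the summed FPKM at 3 h and 15.6 to 15.9% at 6 h.

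Among genes with at least 10 FPKM in 1 of the groups compared, the largest rise was of scaffold00259.g7390 (scaffold00259, 583920 to 587574). It stood at 2.91, 4.58 and 2.20 FPKM in the 3 libraries of 3 h, at 20.1, 15.3 and 15.8 FPKM at 4 h and at 65.8, 79.4 and 55.7 FPKM at 6 h. Each time lay above the one before with no overlap. The N-replete libraries were far higher throughout, at 119, 112 and 127 FPKM at 3 h and 214, 225 and 213 FPKM at 6 h. The change in N-deprived medium was 4.03 on the log2 scale (SE 0.151; limma, adjusted p = 3.49e-20), 16.3-fold, against 0.86 (SE 0.151; adjusted p = 8.92e-06) in N-replete medium. The gap between the media had therefore narrowed by 6 h but was still open, since the highest N-deprived library at 6 h lay below the lowest N-replete one.

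The gene next in size of rise, scaffold00009.g888 (scaffold00009, 1534818 to 1539216), followed the same course. Its 3 h libraries held 5.67, 8.50 and 5.84 FPKM, those of 4 h 32.2, 20.5 and 23.4 FPKM, and those of 6 h 91.3, 120 and 66.4 FPKM. It rose by 3.59 on the log2 scale (SE 0.238; limma, adjusted p = 2.77e-14), 12.0-fold. The N-replete libraries stood at 317, 299 and 349 FPKM at 3 h and 543, 534 and 451 FPKM at 6 h, above all N-deprived ones. Its N-deprived mean reached 377 ± 45.3 FPKM (SD, n = 3) at 12 h and was 82.3 ± 17.0 FPKM (SD, n = 3) at 48 h. The N-replete mean was also higher at 12 h, with 943 ± 41.6 FPKM, than at 48 h, with 238 ± 9.69 FPKM (SD, n = 3 in both).

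The deepest falls were shared by both media. Transcripts of scaffold00354.g10128 (scaffold00354, 397542 to 401706) dropped from 68.6, 66.2 and 61.8 FPKM at 3 h to 12.5, 11.9 and 12.1 FPKM at 4 h and 5.81, 5.42 and 4.56 FPKM at 6 h, so most of the fall was made in the first of these 3 hours. The log2 change was -3.41 (SE 0.103; limma, adjusted p = 8.48e-22), a 10.6-fold fall. N-replete libraries went from 33.4, 32.6 and 37.9 to 4.94, 4.30 and 5.02 FPKM, a log2 change of -2.63 (SE 0.103; adjusted p = 1.41e-19). The media thus differed at 3 h and overlapped at 6 h. At 48 h its means were 37.8 ± 3.66 FPKM without and 35.1 ± 2.59 FPKM with nitrogen (SD, n = 3 in both).

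Transcripts of scaffold00021.g991 (scaffold00021, 22727 to 23741) stood at 134, 129 and 117 FPKM at 3 h, 39.1, 39.2 and 37.6 FPKM at 4 h and 14.0, 14.9 and 11.3 FPKM at 6 h. The 3 times did not overlap. The log2 change of -3.15 (SE 0.143; limma, adjusted p = 3.87e-18), an 8.90-fold fall, had a counterpart of -2.64 in N-replete medium, where the libraries went from 266, 267 and 299 FPKM to 43.4, 38.9 and 48.8 FPKM. The difference between these falls did not pass (limma interaction, adjusted p = 0.0719).

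**Figure D2:**
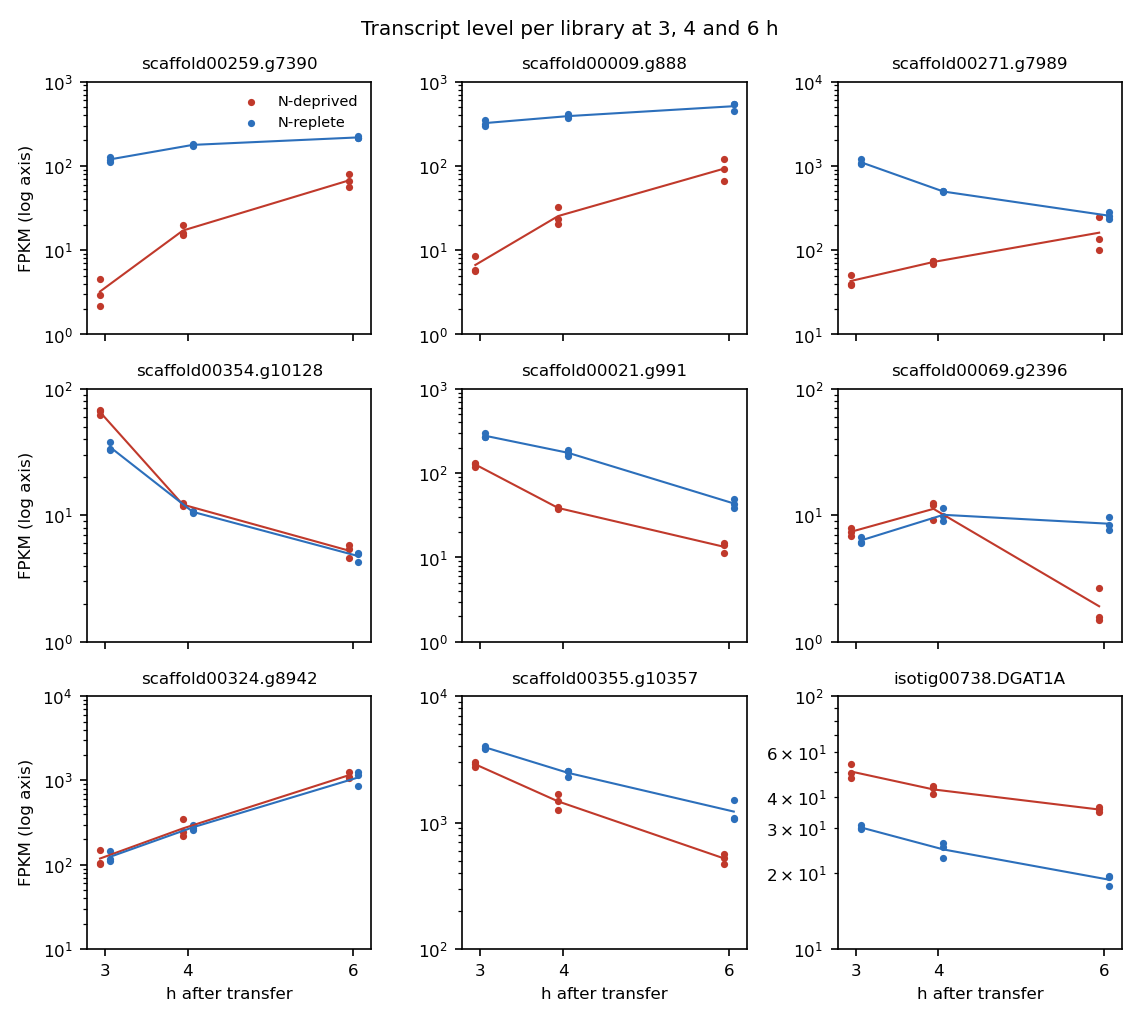
FPKM (log axis) of 9 genes against hours after transfer, with a point for each library and lines through the group means, N-deprived in red and N-replete in blue. Top row, genes that rose in N-deprived medium from a level far below N-replete; middle row, the deepest falls and scaffold00069.g2396, which fell in N-deprived medium alone; bottom row, the largest rise and fall among the 100 most abundant genes, and DGAT1A.

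Among abundant transcripts the largest changes also occurred in both media. Transcripts of scaffold00324.g8942 (scaffold00324, 264252 to 273220), number 70 by mean FPKM over the 6 libraries, stood at 105, 148 and 103 FPKM at 3 h and 1105, 1274 and 1071 FPKM at 6 h. N-replete libraries held 116, 109 and 147 FPKM at 3 h and 1245, 1168 and 849 FPKM at 6 h, overlapping the N-deprived ones at both times. The rises were 3.28 (SE 0.15; limma, adjusted p = 4.16e-18) and 3.11 on the log2 scale, and their difference of 0.17 (SE 0.212) did not pass (adjusted p = 0.634). At 48 h its means were 48.4 ± 0.997 FPKM without and 334 ± 33.4 FPKM with nitrogen (SD, n = 3 in both).

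The largest fall among the 100 most abundant genes was of scaffold00355.g10357 (scaffold00355, 168809 to 170411), number 8 by mean FPKM. It went from 3005, 2921 and 2738 FPKM at 3 h through 1250, 1673 and 1489 FPKM at 4 h to 471, 569 and 525 FPKM at 6 h. N-replete libraries went from 3922, 4064 and 3816 FPKM to 1093, 1067 and 1507 FPKM. The log2 changes were -2.47 (SE 0.110; limma, adjusted p = 2.57e-18) and -1.70, and they differed by -0.77 (SE 0.156; limma interaction, adjusted p = 4.50e-04).

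DGAT1A, the named gene, is the symbol of a diacylglycerol acyltransferase, which adds the final acyl chain that turns diacylglycerol into triacylglycerol. Between 3 and 6 h its transcripts fell. The model isotig00738.DGAT1A (isotig00738, 1 to 2030) stood at 49.7, 54.1 and 47.4 FPKM at 3 h, 41.0, 44.2 and 43.1 FPKM at 4 h and 35.7, 36.5 and 34.7 FPKM at 6 h, with no overlap between the times. The log2 change was -0.49 (SE 0.0689; limma, adjusted p = 2.69e-07), a fall of 1.40-fold. With nitrogen it fell from 31.0, 29.8 and 30.1 FPKM to 17.8, 19.2 and 19.4 FPKM, a log2 change of -0.66 (SE 0.0689; adjusted p = 7.78e-10). The difference between the 2 courses, 0.17 (SE 0.0974), did not pass (limma interaction, adjusted p = 0.225), and the N-deprived libraries lay above the N-replete ones at 3 h and at 6 h alike. Later N-deprived means were higher than the 35.6 FPKM of 6 h, at 48.4, 55.9 and 63.6 FPKM at 12, 24 and 48 h (n = 3 each). That of 12 h lay below the 50.4 FPKM of 3 h. With nitrogen the mean was 18.8 FPKM at 6 h and 29.2, 21.8 and 27.6 FPKM at the later times. These later steps were not tested.

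The change built up through 4 h. Comparing 4 h with 3 h, 1991 genes rose (20.6%) and 1493 fell (15.5%), 111 (1.15%) and 21 (0.218%) of them at least 2-fold, with 36.1% of genes changed in all. Comparing 6 h with 4 h, 2664 rose (27.6%) and 3015 fell (31.3%), 465 (4.82%) and 216 (2.24%) at least 2-fold, with 58.9% changed in all. After median-ratio centring rises outnumbered falls in this second step, 3124 to 2888. The first step spans 1 h and the second 2 h, and each shares its libraries with the comparison of 6 h with 3 h. For 861 of the 915 rising and 643 of the 650 falling genes the 4 h mean lay between those of 3 and 6 h. The median share of the log2 change present at 4 h was 35.2% for rises (25th to 75th percentile 21.3 to 49.2%) and 35.7% for falls (27.7 to 44.9%).

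Genes differed in which step carried their change. Early risers were led, beside scaffold00259.g7390, by scaffold00295.g8450 (scaffold00295, 383859 to 386350), at 22.3, 25.7 and 24.0 FPKM at 3 h, 91.7, 96.6 and 92.0 FPKM at 4 h and 177, 205 and 182 FPKM at 6 h. Its log2 changes were 1.92 (SE 0.0661; limma, adjusted p = 1.18e-19) from 3 to 4 h and 1.00 (SE 0.0661; adjusted p = 2.08e-13) from 4 to 6 h. Early falls were led, beside scaffold00354.g10128, by scaffold00247.g7013 (scaffold00247, 1272687 to 1275060), at 13.0, 13.4 and 11.4 FPKM at 3 h and 2.62, 2.29 and 2.61 FPKM at 4 h. That is a log2 change of -1.95 (SE 0.117; limma, adjusted p = 6.37e-14), and the gene stood at 1.33, 1.07 and 1.12 FPKM at 6 h, so low that adding 1 FPKM shrinks its fold. N-replete means moved in the same direction in both steps. They were 24.4, 76.3 and 169 FPKM at 3, 4 and 6 h for scaffold00295.g8450. For scaffold00247.g7013 they were 4.93, 2.19 and 0.622 FPKM.

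Other genes made most of their change after 4 h. Transcripts of scaffold00289.g8302 (scaffold00289, 22304 to 24091) stood at 6.19, 8.38 and 7.66 FPKM at 3 h, 7.64 to 16.6 FPKM at 4 h, overlapping 3 h, and 66.9, 62.0 and 59.0 FPKM at 6 h. Those of scaffold00247.g6746 (scaffold00247, 583557 to 585897) stood at 9.50, 11.2 and 8.45, then 20.3, 12.0 and 12.6, then 84.5, 77.0 and 74.9 FPKM. The steps from 4 to 6 h were 2.42 (SE 0.171; limma, adjusted p = 8.52e-13) and 2.36 (SE 0.147; adjusted p = 7.01e-14) on the log2 scale. Both had also passed from 3 to 4 h, with smaller log2 changes of 0.51 (adjusted p = 0.0203) and 0.55 (adjusted p = 0.00391), and in both replicate 1 was the highest of the 4 h libraries. Transcripts of scaffold00127.g4479 (scaffold00127, 944569 to 946243) fell mainly in this step, from 29.3, 44.4 and 36.8 FPKM at 4 h to 6.50, 8.47 and 6.60 FPKM at 6 h, a log2 change of -2.20 (SE 0.119; adjusted p = 6.11e-15), after 67.8, 65.3 and 62.1 FPKM at 3 h. The late step was not particular to N-deprived medium. N-replete means at 3, 4 and 6 h were 7.11, 11.7 and 58.9 FPKM for scaffold00289.g8302 and 9.70, 13.0 and 43.0 FPKM for scaffold00247.g6746. For scaffold00127.g4479 they were 45.3, 25.1 and 6.01 FPKM. Single steps were not tested between media.

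The course from 3 to 6 h was largely common to both media. In N-replete medium, whose libraries are others, 3425 genes rose (35.5%) and 3015 fell (31.3%), 66.8% in all, with 946 (9.81%) and 463 (4.80%) at least 2-fold changed. After quantile normalization falls outnumbered rises there, 3620 to 3068. Of the 915 genes that rose at least 2-fold without nitrogen, 887 (96.9%) also passed as rises in N-replete medium, 22 did not pass and 6 fell. Of the 650 that fell, 623 (95.8%) also fell, 25 did not pass and 2 rose. At the 2-fold limit the lists shared 719 rising genes, 78.6% of the N-deprived and 76.0% of the N-replete list, and 337 falling genes, 51.8 and 72.8%. Over all genes tested, 5144 passed in the same direction in both media and 212 in opposite directions. Pearson's r of the 2 log2 changes over 9647 genes was 0.883 and Spearman's rho 0.851, given as a description of genes that share libraries.

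**Figure D3:**
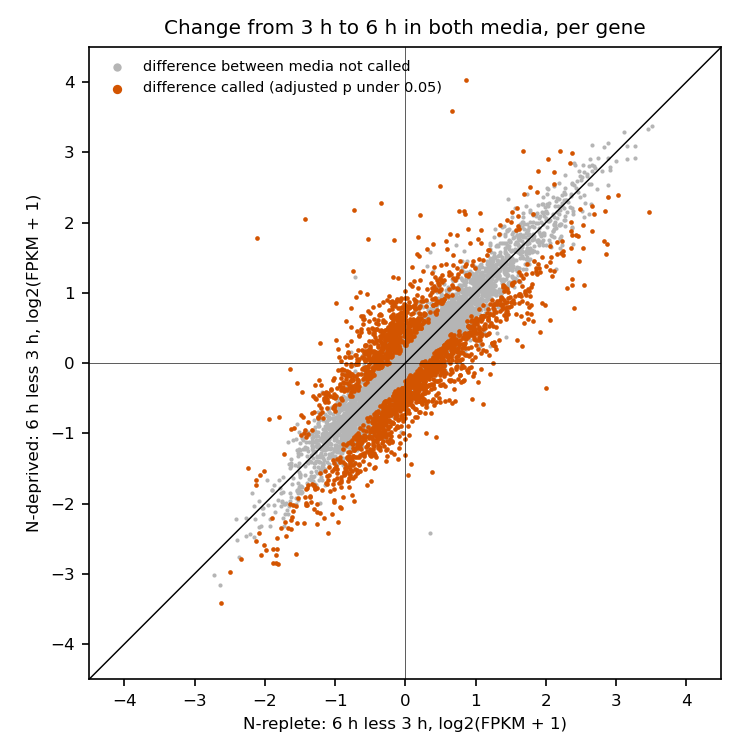
Change from 3 h to 6 h on the log2(FPKM + 1) scale in N-deprived (vertical) against N-replete medium (horizontal), 1 point per gene, 9647 genes. The line marks equal change, and orange points are the 2021 genes whose difference between media passed limma's interaction test. Most genes lie along the line, on which both media changed alike, with a Pearson's r of 0.883 across genes.

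A test of the difference between the media passed for 2021 genes, 20.9% of those tested (limma interaction, adjusted p under 0.05). The change was more positive in N-deprived medium for 788 (8.17%) and more negative for 1233 (12.8%), so that 39.0% of such genes were positive before any further scaling. After median-ratio centring 50.2% were positive, and after quantile normalization 49.6%. A difference of at least 2-fold was found for 84 (0.871%) on the positive and 78 (0.809%) on the negative side. With centring these were 101 and 65, and with quantile normalization 86 and 58.

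Shared falls were deeper without nitrogen under each scaling, while shared rises had no direction that held under all of them. Genes were chosen here by the mean of both courses, so that neither medium decided the choice. Of 498 genes with a mean fall of at least 2-fold, 148 fell further in N-deprived and 22 further in N-replete medium by the interaction test, with median log2 changes of -1.41 and -1.23. After centring the numbers were 140 and 27 of 488, and after quantile normalization 190 and 21 of 554. Of 889 genes with a mean rise of at least 2-fold, 59 rose further in N-deprived and 133 further in N-replete medium. After centring these were 91 and 123 of 897, and after quantile normalization 105 and 88 of 754. For rises the order of the 2 numbers thus turned under quantile normalization and held under centring. Over all 9647 genes the difference was more negative in N-deprived medium for 1233 (12.8%) and more positive for 788 (8.17%). After centring these were 1158 and 1167, and after quantile normalization 1137 and 1117. A negative difference means a further fall in N-deprived medium or a further rise in N-replete medium.

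Genes that rose in N-deprived medium against a fall in N-replete medium were led by a pair of neighbours. Transcripts of scaffold00271.g7989 (scaffold00271, 268111 to 270893) stood at 40.2, 50.1 and 38.8 FPKM at 3 h, 74.8, 74.4 and 68.1 FPKM at 4 h and 135, 248 and 100 FPKM at 6 h. In N-replete medium they fell from 1054, 1068 and 1198 FPKM at 3 h to 234, 252 and 283 FPKM at 6 h. From a 3 h gap with no overlap the media came to overlap at 6 h, through replicate 2 alone. The changes of 1.78 and -2.11 on the log2 scale differed by 3.89 (SE 0.340; limma interaction, adjusted p = 1.03e-09).

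The neighbour scaffold00271.g7988 (263203 to 267456) moved alike, with 10.1, 15.2 and 9.38 FPKM at 3 h and 46.8, 82.2 and 31.9 FPKM at 6 h. The N-replete libraries fell from 431, 434 and 440 FPKM to 155, 157 and 169 FPKM, still above the N-deprived ones. The changes of 2.05 and -1.43 differed by 3.48 (SE 0.365; limma interaction, adjusted p = 2.59e-08). Of 84 genes with a positive difference of at least 2-fold, 40 were called in opposite directions in the media, 18 in the same direction, 21 in N-deprived medium alone and 5 in N-replete medium alone. Over all 9647 genes, 212 were called in opposite directions and 5144 in the same direction. The 84 were chosen on the difference between the courses, a choice that favours opposite calls. The median log2 level of the 84 in N-deprived less that in N-replete medium was -1.32 at 3 h and -0.14 at 6 h, in the libraries that chose them.

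The rise of at least 2-fold that was largest among genes called lower in N-replete medium was of scaffold00095.g3439 (scaffold00095, 336676 to 337670). It stood at 44.7, 58.2 and 47.5 FPKM at 3 h and 217, 340 and 165 FPKM at 6 h, against 810, 786 and 918 FPKM and then 468, 501 and 544 FPKM in N-replete medium. The changes were 2.19 (SE 0.249; limma, adjusted p = 4.33e-09) and -0.73 (SE 0.249; adjusted p = 0.0108). In this gene, in scaffold00271.g7988 and g7989, in scaffold00259.g7390 and in scaffold00009.g888, replicate 2 was the highest and replicate 3 the lowest of the 6 h N-deprived libraries. Replicate 2 was also the highest of the 3 h N-deprived libraries in all 5, though at 4 h it was so in scaffold00271.g7988 alone. Leaving out any 1 library kept past the threshold the comparison by which each of these genes is named.

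Among genes with at least 10 FPKM in 1 of the groups compared, the 2 most negative differences belonged to genes that fell without nitrogen. With nitrogen 1 of them rose and 1 held its level. Below that level at 3 and 6 h, scaffold00069.g2396 had a more negative difference of -1.93. Transcripts of scaffold00214.g6223 (scaffold00214, 507680 to 511343) stood at 95.5, 84.9 and 98.7 FPKM at 3 h, 111, 127 and 115 FPKM at 4 h and 57.5, 67.4 and 60.2 FPKM at 6 h. N-replete libraries held 94.1, 100 and 97.2 FPKM at 3 h, overlapping those without nitrogen, and 224, 191 and 217 FPKM at 6 h. The difference was -1.69 (SE 0.15; limma interaction, adjusted p = 1.22e-09).

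Transcripts of scaffold00043.g1571 (scaffold00043, 88656 to 90493) stood at 28.2, 22.6 and 26.6 FPKM at 3 h, 22.0, 25.8 and 25.7 FPKM at 4 h and 6.90, 8.52 and 8.21 FPKM at 6 h. N-replete libraries held 15.5, 16.2 and 14.1 FPKM at 3 h and 17.2, 15.2 and 14.5 FPKM at 6 h. The order of the media thus turned between 3 and 6 h, with a difference of -1.62 (SE 0.136; limma interaction, adjusted p = 4.40e-10). Of 78 genes with a negative difference of at least 2-fold, 39 were called in the same direction in both media and 13 in opposite directions. Another 12 were called in N-deprived medium alone and 14 in N-replete medium alone. Over all 9647 genes, 5144 were called in the same direction in both media and 212 in opposite directions. The 78 were chosen on the difference, so their counts describe them and test nothing.

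The deepest N-deprived fall of at least 2-fold among genes called higher in N-replete medium was of scaffold00069.g2396 (scaffold00069, 482833 to 485764). It held 7.87, 6.88 and 7.43 FPKM at 3 h, 9.23, 12.4 and 12.1 FPKM at 4 h and 1.50, 1.57 and 2.66 FPKM at 6 h, against 6.14, 6.01 and 6.78 FPKM at 3 h and 9.71, 8.35 and 7.67 FPKM at 6 h in N-replete medium. Its N-deprived change was -1.55 (SE 0.136; limma, adjusted p = 1.51e-11) and its step from 4 to 6 h -2.09 (SE 0.136; adjusted p = 1.49e-13), among the 2 largest falls of that step in genes with at least 10 FPKM. At 48 h its means were 0.256 ± 0.0657 FPKM without and 22.3 ± 2.00 FPKM with nitrogen (SD, n = 3 in both).

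Genes that changed lay beside each other more often than single genes did overall. Of the 915 rising genes, 35.4% had a neighbouring tested gene that also rose at least 2-fold, where 17.3% of all genes had such a neighbour. Of the 650 falling genes 28.5% had a falling neighbour, where 12.3% of all genes did. Libraries kept no strand and neighbouring loci lie a median of 124 bp apart, so reads of overlapping or antisense transcripts cannot be told apart.

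A run of 19 neighbouring genes on scaffold00295 (1082824 to 1123674) rose together. The next longest rising run had 4 genes and the longest falling runs had 5. Each of the 19 rose at least 2-fold, by 1.16 to 2.00 on the log2 scale, and the libraries of 3 and 6 h did not overlap for any of them. The same held for 911 of the 915 genes that rose at least 2-fold and for 75.8% of all genes. The run was found from these libraries, so its N-deprived changes describe it. In N-replete libraries, which entered its choice only through the filter and the variance of the test, all 19 also rose at least 2-fold, by 1.03 to 1.86, where 9.81% of all genes rose at least 2-fold. Of the 915 genes that rose at least 2-fold in N-deprived medium, 78.6% did so in N-replete medium too. The difference between media passed for 0 of the 19 (limma interaction), where it passed for 20.9% of all genes. Their log2 differences ranged from -0.11 to 0.49 and most were positive. With an SE of 0.158 to 0.288 for each course, differences of this size are hard to detect, so the 0 does not show equal rises. The median FPKM over the run was 5.13, 5.52 and 4.86 in the 3 h libraries, 8.81, 4.29 and 4.93 at 4 h and 19.3, 12.4 and 17.0 at 6 h. Replicate 1 of 4 h was the highest of its group here, as in scaffold00289.g8302 and scaffold00247.g6746. From the first gene of the run to the last on the scaffold (1137324), 26 of 28 genes passed as rises and 0 as falls, where 35.0 and 34.8% of all genes did. Of the 28, 23 rose at least 2-fold, where 9.48% of all genes did. These counts include the 19 genes of the run, whose rises were fixed by its choice, so they describe the stretch and test nothing. The 8 genes next past the run changed by 0.47 to 1.54 on the log2 scale in N-deprived medium. Without this stretch, 33.9% of rising genes had a rising neighbour.

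**Figure D4:**
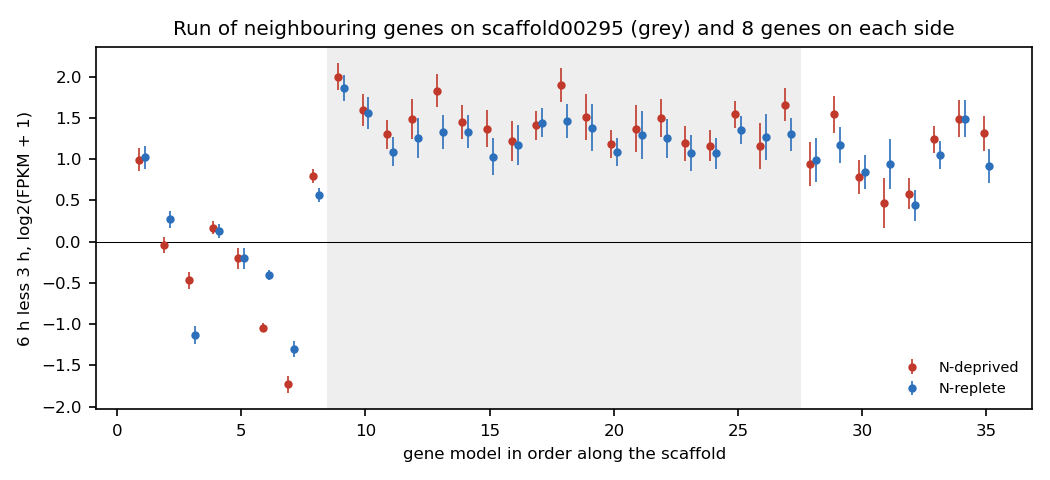
Change from 3 h to 6 h on the log2(FPKM + 1) scale (vertical axis, points with SE from limma) for genes in order along scaffold00295, N-deprived in red and N-replete in blue. The grey band marks the run of 19 genes, all between 1.16 and 2.00 in N-deprived medium, and the 8 genes on each side range from -1.73 to 1.54 in that medium.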

How the data were processed

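Poly(A) RNA of whole cells was sequenced as strand-nonspecific 90 bp pairs, per the labels' protocols. The authors deposited FPKM per gene model, with TopHat2 2.0.4 and Cufflinks 2.0.2 named per the submitters' processing notes. The genome build, annotation and settings are not given in the sources used here. FPKM is relative to the library, so values depend on what the other transcripts do, and an exact 0 can be a failed estimate.

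The test covered the 9647 genes that reach 1 FPKM in 3 or more of the 36 libraries. limma 3.58.1 in R 4.3.3 was fitted to log2(FPKM + 1) over all 36 libraries with a mean for each of 12 groups and a trended prior, two-sided, with Benjamini-Hochberg adjustment over all genes, and was tested on simulated data. Folds are on this scale and understate changes near 1 FPKM. The 3 comparisons within N-deprived medium, the same interval in N-replete medium and the interaction were tested. Labels name 3 biological replicate cultures per medium, without saying whether a number follows 1 culture. Exact comparisons of 3 with 3 libraries cannot give p under 0.10, so single-gene calls rest on the pooled variance.

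Named genes are, per comparison, the 2 largest changes in each direction with adjusted p under 0.05, at least 10 FPKM in 1 group and no overlap (not asked of the interaction), the largest rise and fall among the 100 most abundant, the same among at least 2-fold changes opposite in N-replete medium, and DGAT1A. Members, rules and lists were chosen with earlier results of these data known. The sets chosen on the mean of both courses, the run of neighbours and the genes with a turn at 4 h were added after seeing the data. The reference table held 160 organelle genes and matched 0 identifiers, so no sequence is shown.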

Additional observations from a re-analysis of the deposited data

Results flagged for a closer look

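The change from 3 to 6 h differed between N-deprived and N-replete medium, by limma's interaction test with Benjamini-Hochberg adjustment, for 2021 genes and for 12 of the genes named above. On the log2 scale the N-deprived less the N-replete change was 3.89 for scaffold00271.g7989, 3.48 for scaffold00271.g7988, 3.17 for scaffold00259.g7390, 2.93 for scaffold00009.g888 and 2.92 for scaffold00095.g3439. All 5 stood far below N-replete medium at 3 h. A smaller positive difference of 0.87 was found for scaffold00247.g6746, which rose in both media. The difference was -1.93 for scaffold00069.g2396, -1.69 for scaffold00214.g6223 and -1.62 for scaffold00043.g1571, which fell in N-deprived medium alone. It was -0.78 for scaffold00354.g10128, -0.77 for scaffold00355.g10357 and -0.76 for scaffold00247.g7013, which fell in both media and further without nitrogen. With 3 libraries in a group, single libraries were not examined as outliers.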

How the results depend on the processing

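The genes named by rule kept their direction and passed under all alternatives run, 381 values for 21 gene and comparison pairs. Of 273 recomputed numbers of genes, 265 stayed within 1.5 times the reported one. The other 8 are numbers of at least 2-fold changes that moved with the added FPKM. With 5 FPKM added, the comparison of 4 h with 3 h had 51 rises and 13 falls, that of 6 h with 4 h 266 and 134, N-replete 6 h against 3 h 275 falls, and the interaction 47 positive and 23 negative differences. With 0.1 FPKM added the interaction had 119 negative differences. Leaving out 1 library at a time gave 6266 to 6444 genes for 6 h against 3 h without nitrogen and 1656 to 1927 for the interaction. Whether replicate numbers pair libraries was not settled. Deviations from the group means correlated across genes at -0.165, -0.106 and 0.040 between same-numbered 3 and 6 h N-deprived libraries, and 1 of the 3 libraries of 3 h correlated best with its own number at 6 h. Over all 36 libraries the correlation within a number and medium was estimated at 0.122. With a replicate block 6914 genes passed for 6 h against 3 h without nitrogen, and 6913 with the number as a random effect, against 6730 with neither. For the interaction 2321 passed with the block, against 2021 without it. Depth is not known in fragments, so low genes carry an unknown counting error.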

Other observations

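A few genes turned at 4 h in N-deprived medium rather than moving one way. With both steps past an adjusted p of 0.05 in limma and at least 1.5-fold, a limit chosen after the data were examined, 6 genes peaked and 7 dipped at 4 h. Among those with at least 10 FPKM in 1 group the clearest peak was of scaffold00088.g3300 (scaffold00088, 94196 to 95294), at 50.7, 41.4 and 43.5 FPKM at 3 h, 88.3, 92.0 and 93.7 FPKM at 4 h and 50.4, 64.1 and 62.0 FPKM at 6 h. With nitrogen it went on rising, from 65.8, 61.4 and 68.5 FPKM at 4 h to 100, 74.3 and 75.1 FPKM at 6 h. The clearest dip was of scaffold00007.g232 (scaffold00007, 608589 to 610013), at 169, 171 and 163 FPKM, then 104, 79.4 and 84.0 FPKM, then 174, 162 and 164 FPKM. With nitrogen it stayed low after 4 h, at 53.2, 57.4 and 50.8 FPKM at 6 h.

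The run of 19 neighbouring genes on scaffold00295 stood highest at 12 h in both media. The median of its gene means in N-deprived medium was 4.85 FPKM at 3 h, 14.4 at 6 h, 98.5 at 12 h, 13.8 at 24 h and 8.26 at 48 h. In N-replete medium it was 5.59, 13.8, 64.2, 14.9 and 13.3 FPKM at the same times. FPKM is relative to the library, and the 6 libraries of 12 h stand apart from the others, with medians over all genes of 17.6 to 20.7 FPKM against 24.3 to 30.9 FPKM and with 27.3 to 31.7% against 15.7 to 26.4% of the sum in each library's top 100 genes. The part of this in the 12 h values of the run was not tested.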
